A study of Mus musculus with 10 samples.

Results

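A set of 8 genes of the fetal liver and of liver tumours was followed in mice with a liver-specific deletion in Ndrg3. They are Afp, H19, Igf2, Gpc3, Igf2bp3, Dlk1, Lin28b and Cd24a, and all 8 were among the 24052 gene symbols with counts. They were chosen by name, as genes known from fetal or oncofetal liver, with no threshold on their values but with earlier results of these data known. RNA sequencing had been done on 10 livers of mice on a C57BL/6 background (the allele had been backcrossed to C57BL/6N) with free access to food, and each liver gave 1 library. The 5 wild-type livers are called WT1 to WT5. The 5 Ndrg3 LKO livers, LKO1 to LKO5, carried a homozygous floxed Ndrg3 gene and a Cre recombinase under the albumin promoter, which removes exon 4. The controls were wild-type littermates, and no group with Cre alone or with the floxed gene alone was analysed here. The albumin promoter is active in hepatocytes and in their fetal precursors, and the loss of the gene in each cell type was not measured here. The livers came from mice of 8 to 12 weeks of age, since the stated ranges, 8 to 10 and 10 to 12 weeks, differ, and the study used males unless it said otherwise.

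Liver cells of the fetus express a set of genes that are shut down around birth, and some of them return in regenerating, injured or malignant liver, hence the word oncofetal. Afp encodes alpha-fetoprotein, the main plasma protein of the fetus, which is replaced by albumin after birth. H19, a noncoding RNA, and Igf2, a fetal growth factor, are imprinted neighbours that share enhancers. Gpc3 (a cell surface heparan sulfate proteoglycan), Cd24a (a small glycosylated surface protein of progenitor and bile duct cells) and Dlk1 (a Delta-like transmembrane protein of hepatoblasts) sit at the cell surface. Igf2bp3 and Lin28b bind RNA, and Lin28b blocks the maturation of let-7 microRNAs.

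In the Ndrg3 LKO livers Afp, Gpc3 and Igf2bp3 were higher than in every wild-type liver. H19 was high in 3 of the 5 Ndrg3 LKO livers and in 1 wild-type liver that also held skeletal muscle transcripts. Cd24a and Igf2 overlapped between the groups, and Dlk1 and Lin28b were at the limit of detection in both.

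The members lie on 6 chromosomes. In the NCBIM37 assembly (mm9), with the GENCODE annotation, Afp is at chr5:90919740-90937933 on the plus strand, 14110 bp from the albumin gene Alb, and H19 is at chr7:149761434-149764048 on the minus strand, 72624 bp from Igf2 at chr7:149836673-149852721 on the same strand. Gpc3 is at chrX:49625603-49967127 and Igf2bp3 at chr6:49035220-49164953, both on the minus strand. Dlk1 is at chr12:110691033-110701546 on the plus strand, Lin28b at chr10:45096426-45206201 on the minus strand, and Cd24a at chr10:43298975-43304068 on the plus strand. The library kit kept strand, but the strand setting of the counting was not given in the sources used here, so genes with an opposite neighbour are less certain. Of the merged exons of Igf2bp3, which span 4344 bp, 1531 bp lie inside the opposite gene 2410003K15Rik, now called Malsu1. Of those of Gpc3 and Igf2, 480 bp lie inside the opposite transcript A630012P03Rik and 475 bp inside Igf2as.

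For the 3 genes that were higher in all Ndrg3 LKO livers, the 250 bases before the annotated start are shown to compare their makeup. They are RefSeq promoters of GRCm38.p6, written 5′ to 3′ on the strand of the gene, and 6 of the 8 members had an entry. Capitals mark matches on either strand to 3 letter patterns. The site of the FOXA factors was searched for as TGTTTAC. The GC box was searched for as GGGCGG, which appears as its reverse complement where it lies on the other strand. The TATA box was searched for as TATAAA.
Afp promoter, chr5:90490464-90490713, plus strand: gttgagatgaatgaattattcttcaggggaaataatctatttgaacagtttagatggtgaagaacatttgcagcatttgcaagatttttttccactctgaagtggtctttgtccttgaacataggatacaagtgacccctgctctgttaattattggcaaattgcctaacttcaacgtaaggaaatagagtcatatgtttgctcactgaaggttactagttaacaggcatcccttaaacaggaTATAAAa
Gpc3 promoter, chrX:52613975-52614224, minus strand: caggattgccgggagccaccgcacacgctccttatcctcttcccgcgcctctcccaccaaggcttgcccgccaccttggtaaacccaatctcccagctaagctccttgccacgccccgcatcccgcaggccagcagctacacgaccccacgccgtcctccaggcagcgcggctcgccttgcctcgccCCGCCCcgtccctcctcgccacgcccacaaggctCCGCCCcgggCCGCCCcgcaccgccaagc
Igf2bp3 promoter, chr6:49214955-49215204, minus strand: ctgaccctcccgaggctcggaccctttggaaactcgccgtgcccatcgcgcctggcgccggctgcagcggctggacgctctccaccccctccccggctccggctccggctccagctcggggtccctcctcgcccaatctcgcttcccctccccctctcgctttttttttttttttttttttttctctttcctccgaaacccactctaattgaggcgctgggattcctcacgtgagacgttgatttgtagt
Afp had a TATA box ending 2 bases before the start, in a stretch of 36.0% G and C with 1 CpG. Gpc3 had 3 GC boxes, 71.6% G and C and 25 CpGs, and Igf2bp3 had none of the 3 patterns, 60.4% G and C and 21 CpGs. The median promoter had 52.4% G and C and 6 CpGs. Of 32851 promoters of the same length, 3.17% held the FOXA site, 32.7% the GC box and 12.4% the TATA box. The 3 genes that were higher in the Ndrg3 LKO livers thus had no pattern of these 3 in common. A match of letters is a description and not a binding site.

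Libraries held between 20872262 and 24747870 counts in wild-type and between 23474693 and 30450057 in Ndrg3 LKO livers, and the counts allow for a level of up to 0.179 TMM-normalized CPM where a gene has 0, taken as 3 counts in the smallest effective library. CPM are counts divided by the size of the library, and TMM is a scaling of that size which assumes that most genes are unchanged. In all, 3 livers stood apart. In WT5, all 12 genes of a skeletal muscle list had their highest counts, from 263 to 1945, against at most 40 in any other liver. Their summed level was 551 CPM in WT5, 0.281 to 0.368 in the other wild-type livers and 0.567 to 1.37 in the Ndrg3 LKO livers. In WT2, Krt19, a keratin of bile duct cells, had 146 counts against 11 to 25 in the other wild-type livers. In LKO5, the summed level of 7 hepatocyte markers was 142897 CPM, inside the wild-type range of 122062 to 164078, whereas LKO1 to LKO4 had 32591 to 39679. Most of the LKO5 sum was Alb, at 108020 CPM. Alb, Ttr and Cps1 lay inside their wild-type ranges in LKO5, and Serpina1a lay above. Apoa1, Hnf4a and Apob, at 14016, 362 and 2357 CPM in LKO5, lay below the lowest wild-type levels of 16788, 590 and 3230 CPM. The targeted gene Ndrg3, whose counts include exons outside the deletion, was lower in the Ndrg3 LKO group (log2 fold change -1.20 in edgeR, with no overlap between the groups). In bulk livers, fewer cells of a type and less RNA per cell cannot be told apart.

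Of the members above the limit of detection, Afp had the largest log2 fold change in the main fit over all 10 livers. H19 had the larger one when WT5 was left out, and also when the replicate number was added to the fit as a block. Afp had 0.675, 0.685, 1.45, 1.10 and 1.13 CPM in WT1 to WT5, and 10.9, 6.70, 9.92, 3.74 and 4.20 CPM in LKO1 to LKO5. The lowest Ndrg3 LKO liver, LKO4, lay above the highest wild-type liver, WT3, and the highest levels were in LKO1 and LKO3. The mean was 1.01 ± 0.330 CPM in wild-type and 7.09 ± 3.25 CPM in Ndrg3 LKO livers (SD, n = 5 each). On the log2 scale edgeR put the change at 2.81 ± 0.36 (standard error, 95% interval 2.03 to 3.60, adjusted p = 1.17e-04), that is 7.03-fold, and the exact two-sided permutation test gave p = 0.00794, the smallest that 5 against 5 livers can give. Of the 11208 genes tested, 120 rose more. Without LKO5 the mean of the Ndrg3 LKO livers was 7.81 ± 3.25 CPM (SD, n = 4).

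The level of Afp stayed far below that of albumin, its neighbour and relative. For each count of Afp there were between 66176 and 171874 counts of Alb in wild-type livers. In LKO1 to LKO4 there were 2424, 3239, 2112 and 6033, and in LKO5 there were 25708. The Alb level was 80612 to 115946 CPM in wild-type livers, 20962 to 26379 CPM in LKO1 to LKO4 and 108020 CPM in LKO5. LKO5 thus had an Afp level above every wild-type liver beside an Alb level inside the wild-type range.

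Among surface proteins, Gpc3 rose. It had 0.506, 1.13, 1.34, 0.644 and 0.298 CPM in WT1 to WT5, and 2.10, 2.52, 4.36, 2.03 and 1.56 CPM in LKO1 to LKO5. LKO3 was highest, and LKO5, the lowest of its group, was still above WT3, the highest wild-type liver. The means were 0.782 ± 0.435 and 2.51 ± 1.09 CPM (SD, n = 5 each), with a log2 fold change of 1.68 and a standard error of 0.39 (edgeR adjusted p = 0.00454). The exact permutation test gave p = 0.00794. The opposite transcript A630012P03Rik had at most 1 count in any liver.

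Cd24a did not pass the test. Its levels were 1.63, 4.89, 1.78, 1.20 and 0.775 CPM in WT1 to WT5, and 6.05, 3.59, 4.90, 1.31 and 1.94 CPM in LKO1 to LKO5. WT2 lay inside the range of the high Ndrg3 LKO livers, while LKO4 lay inside the range of the remaining wild-type livers and LKO5 just above it. The means were 2.06 ± 1.63 and 3.56 ± 1.98 CPM (SD, n = 5 each), and edgeR gave a log2 fold change of 0.79 (95% interval -0.32 to 1.90, adjusted p = 0.218). The exact permutation test gave p = 0.183. Without WT2 it was 1.41 (edgeR adjusted p = 0.0278), and scaling by library size gave 1.35 (edgeR adjusted p = 0.0402).

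Bile duct markers moved with Cd24a from liver to liver. Krt19 was at 7.14 CPM in WT2 and at 0.656 to 1.39 in the other wild-type livers, and in the Ndrg3 LKO livers it was at 3.77, 1.24, 1.91, 1.63 and 1.23 CPM in LKO1 to LKO5. The summed level of 8 cholangiocyte markers was 80.6 CPM in WT2 against 49.9 to 63.5 in the other wild-type livers. In the Ndrg3 LKO livers it was lowest in LKO4 and LKO5, at 58.9 and 57.0 CPM, and highest in LKO1 at 229 CPM. LKO4 and LKO5 were also the Ndrg3 LKO livers with the least Cd24a. The part of bile duct cells in the level of Cd24a was not tested.

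Dlk1 was at or below the limit of detection. It had 2, 0, 0, 2 and 1 counts in WT1 to WT5, and 3, 1, 1, 0 and 2 counts in LKO1 to LKO5, so no fold is given. Its imprinted neighbour Meg3, a maternally expressed noncoding RNA that begins 77664 bp away on chromosome 12, was measurable and is described with the imprinted genes.

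Of the RNA-binding proteins, Igf2bp3 rose. It failed the filter on low values, which asked for at least 1 CPM in at least 5 livers, and its value comes from the fit of all 17746 genes with a count. It had 13, 16, 9, 7 and 4 counts in WT1 to WT5, and 34, 54, 33, 52 and 21 counts in LKO1 to LKO5. The levels were 0.238 to 0.783 CPM in wild-type and 0.851 to 1.48 CPM in Ndrg3 LKO livers, with no overlap. The means were 0.515 ± 0.241 and 1.12 ± 0.264 CPM (SD, n = 5 each). On the log2 scale edgeR put the change at 1.08 ± 0.36 (standard error, adjusted p = 0.0306; exact permutation test, p = 0.00794). The call was lost when WT3, WT4, WT5, LKO2 or LKO4 was left out, with edgeR adjusted p from 0.0563 to 0.077 and log2 fold changes from 0.91 to 1.07. Malsu1, the gene on the opposite strand, was at 11.3 to 18.0 CPM in wild-type and 10.2 to 20.1 CPM in Ndrg3 LKO livers (edgeR log2 fold change 0.08, adjusted p = 0.792).

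Lin28b had 1 count in WT1, 2 counts in WT2 and 0 in each of the other 8 livers, which allows a level of up to 0.0728 to 0.142 CPM in the Ndrg3 LKO livers. Both groups were under the limit of 3 counts, so no fold is given.

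**Figure D1:**
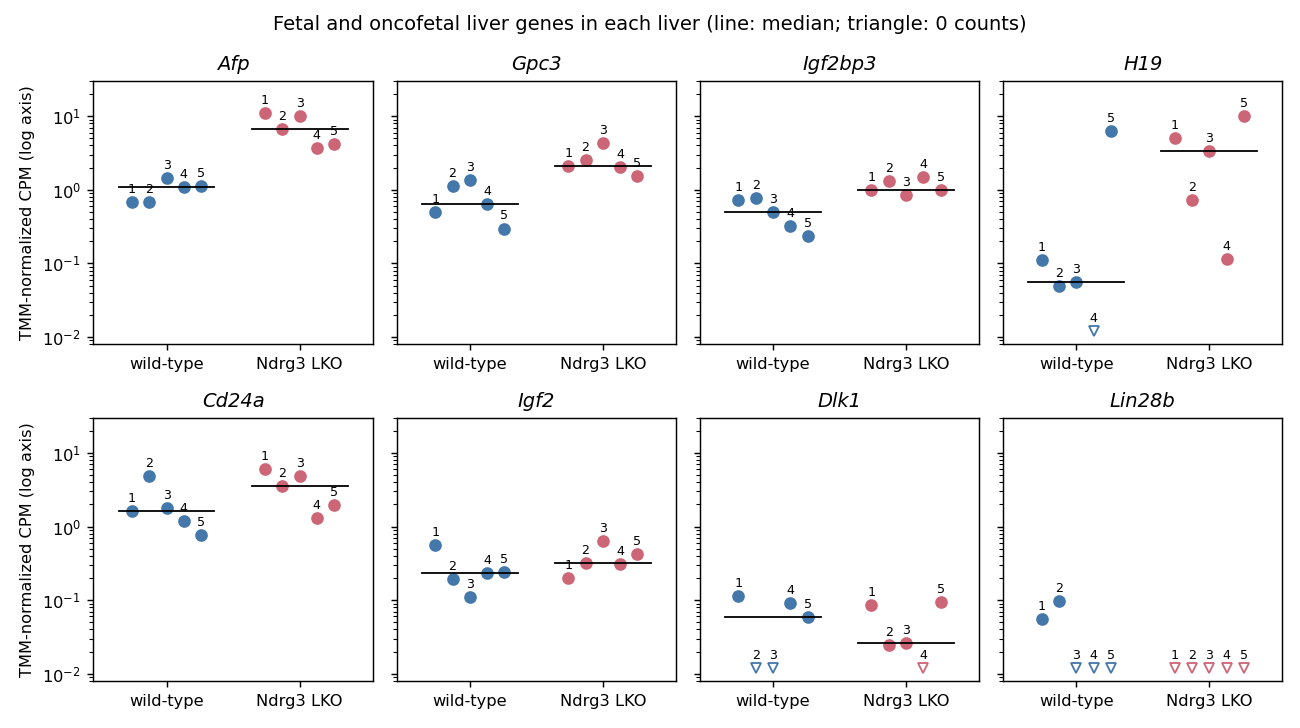
TMM-normalized CPM of the 8 genes in each liver, on a log axis, with wild-type livers in blue and Ndrg3 LKO livers in red, the replicate number above each point, and the median as a line. For Afp, Gpc3 and Igf2bp3 all 5 Ndrg3 LKO livers lie above all 5 wild-type livers. For H19 WT5 at 6.38 CPM and for Cd24a WT2 at 4.89 CPM lie among the highest Ndrg3 LKO livers.

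H19 varied more than any other member. Counts were 2, 1, 1, 0 and 107 in WT1 to WT5, and 176, 30, 132, 4 and 216 in LKO1 to LKO5. The levels were 0.112, 0.0489, 0.0558, 0 and 6.38 CPM in the wild-type livers, and 5.07, 0.728, 3.40, 0.114 and 10.2 CPM in the Ndrg3 LKO livers. WT1 to WT4 were under the limit of 3 counts, and 4 of the Ndrg3 LKO livers had 30 or more. LKO4, with 4 counts, was barely above that limit. Over all 10 livers the test was not passed (log2 fold change 1.53, 95% interval -1.09 to 4.15, edgeR adjusted p = 0.349 in the fit of all genes with a count; exact permutation test, p = 0.175).

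The single wild-type liver with H19, WT5, was the liver with skeletal muscle transcripts. H19 is known to be expressed in skeletal muscle of adult mice. LKO5, with the highest H19 level, had a summed muscle level of 0.567 CPM, and LKO1 and LKO3 had 0.950 and 1.37 CPM, against 551 CPM in WT5. The high H19 of these 3 livers was thus measured with muscle markers near 0, while the part of muscle RNA in the H19 of WT5 was not tested. Without WT5 the edgeR adjusted p was 0.0033 (log2 fold change 6.05), and without both WT2 and WT5 it was 0.0118. Those folds rest on few wild-type counts, 4 in WT1 to WT4 together, and each liver was left out in turn, while these fits are shown with the H19 level of WT5 known.

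**Figure D2:**
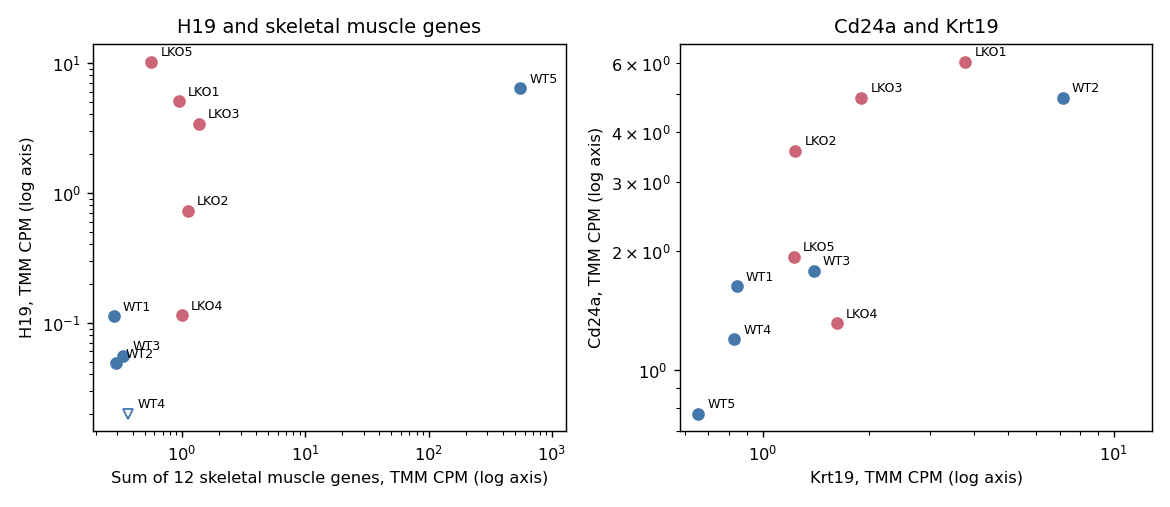
H19 against the summed level of 12 skeletal muscle genes (left) and Cd24a against Krt19 (right), in TMM-normalized CPM on log axes, with 1 point per liver, wild-type in blue and Ndrg3 LKO in red. WT5 stands alone at 551 CPM of muscle genes, while LKO5, LKO1 and LKO3 reach H19 levels of 3.40 to 10.2 CPM at muscle levels of at most 1.37 CPM. WT2 has the highest Krt19 level, 7.14 CPM. The triangle marks WT4, which had 0 counts of H19.

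Igf2, the neighbour of H19, did not pass the test. It had 10, 4, 2, 5 and 4 counts in WT1 to WT5, and 7, 13, 25, 11 and 9 in LKO1 to LKO5. The levels were 0.562, 0.196, 0.112, 0.230 and 0.238 CPM in the wild-type livers and 0.202, 0.316, 0.644, 0.314 and 0.425 CPM in the Ndrg3 LKO livers. The groups overlapped, with WT1 close to LKO3, the highest. In the edgeR fit of all genes with a count the log2 fold change was 0.47 (95% interval -0.55 to 1.49, adjusted p = 0.464), and the exact permutation test gave p = 0.302. WT5 and LKO5, which had the highest H19 levels of their groups, had Igf2 at 0.238 and 0.425 CPM.

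Only 3 of the 8 members, Afp, Gpc3 and Cd24a, passed the filter on low values, and the 5 Ndrg3 LKO livers alone would have let Afp, Gpc3 and Cd24a pass. Afp, Gpc3 and Cd24a reached 1 CPM in 7, 6 and 9 livers, so none would have passed through the wild-type livers alone. The counts among these 3 members are thus a description and not a test. Of the 3, 2 rose and none fell, where 25.6% of all 11208 genes tested rose and 23% fell in edgeR at an adjusted p below 0.05. In the fit of all 17746 genes with a count, in which every member was present, 3 of 8 rose, against 18.5% of all genes. None of the 3 that passed the filter fell in edgeR or in DESeq2, and none of the 8 fell in the edgeR fit of all genes with a count, where 1, Lin28b, was lower at an unadjusted p below 0.05. Lin28b had 3 counts over all 10 livers, and its exact permutation p was 0.444. Every Ndrg3 LKO liver lay above every wild-type liver for 2 of the 3 members that passed the filter, against 15.6% of the genes that passed. With all genes that had a count the background was 12.5%, and H19, Igf2, Dlk1 and Lin28b overlapped while Igf2bp3 did not. A share of so few genes says little about the members as a group. With library-size scaling 52.1% of all genes tested rose and 8.97% fell, and the counts of the gene lists that follow are to be read against these shares for each scaling.

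**Figure D3:**
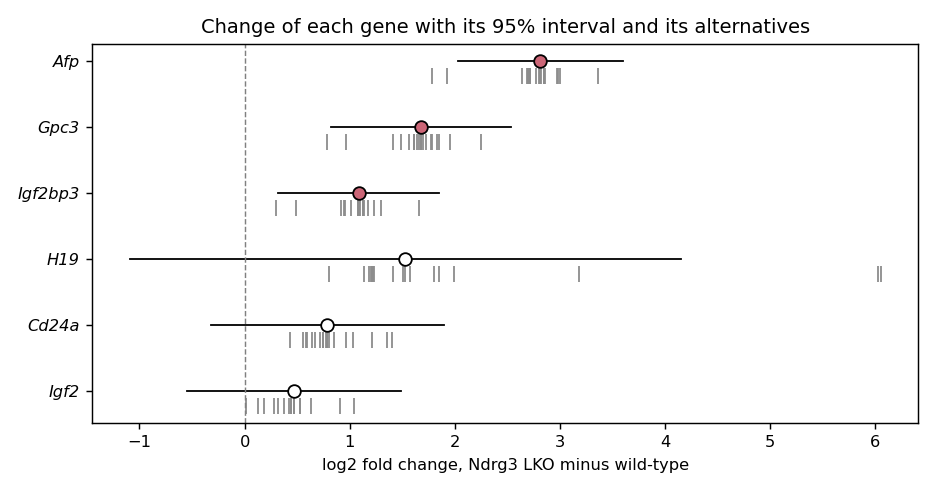
Log2 fold change of the 6 members above the limit of detection, Ndrg3 LKO minus wild-type, with the 95% interval as a line. Filled circles passed an edgeR adjusted p of 0.05, and grey ticks are the values under other processing choices and without single livers. All ticks of the 6 members lie above 0, the lowest at 0.0097 for Igf2. Afp at 2.81 and Gpc3 at 1.68 passed the threshold at every tick, while H19 runs from 0.80 to 6.05.

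Per kilobase of exon, the members can be put in order of level within each group, with no test of the order. In wild-type livers the median levels per kilobase were 0.899 CPM for Cd24a, 0.529 for Afp, 0.239 for Gpc3, 0.116 for Igf2bp3, 0.0419 for Igf2 and 0.0235 for H19, the last from a median of 1 count. In Ndrg3 LKO livers they were 3.21 CPM for Afp, 1.98 for Cd24a, 1.43 for H19, 0.781 for Gpc3, 0.228 for Igf2bp3 and 0.0574 for Igf2. In wild-type livers each pair of neighbours in this order overlapped. In Ndrg3 LKO livers the neighbours from Afp down to Gpc3 overlapped, while Gpc3 lay above Igf2bp3 and Igf2bp3 above Igf2 in all livers of the group.

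The genes whose pattern over the 10 livers was closest, by the root mean square difference of centred log2(CPM + 1), were Iqcg, Maged2 and Itgb1bp1 for Afp, at 0.230, 0.235 and 0.242. For Gpc3 they were Pdgfra, Snx12 and Emp1, at 0.217, 0.219 and 0.221, and Pdgfra is a receptor of fibroblasts and stellate cells. For Cd24a they were Tspan8, Gbp6 and Epcam, at 0.264, 0.357 and 0.371, and Epcam is a surface protein of bile duct and progenitor cells. Tspan8 ran from 0.358 CPM in WT5 to 2.49 CPM in WT2, and from 0.614 CPM in LKO5 to 4.32 CPM in LKO1, an order close to that of Cd24a. These distances were given no test.

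Genes known to control Afp moved both ways. Of 16 regulators, all tested, 2 rose and 7 fell, where 25.6% of all genes rose and 23% fell. With library-size scaling 6 rose and 3 fell. The median log2 fold change with TMM scaling was -0.28 against 0.03 for all genes. Zbtb20, a zinc finger repressor that keeps Afp off in adult liver, was at 4.89, 6.16, 4.29, 5.15 and 7.33 CPM in WT1 to WT5, and at 2.16, 2.55, 2.94, 3.11 and 3.02 CPM in LKO1 to LKO5. The groups did not overlap, and Zbtb20 fell by 1.01 on the log2 scale (standard error 0.19, edgeR adjusted p = 0.00132). Scaling by library size left -0.48 (edgeR adjusted p = 0.0645). Zhx2, which represses Afp, H19 and Gpc3 in adult mouse liver, did not pass, with 13.9 to 21.7 CPM in wild-type and 13.7 to 32.5 CPM in Ndrg3 LKO livers (log2 fold change 0.45, edgeR adjusted p = 0.0898). It passed without LKO5 (log2 fold change 0.61, edgeR adjusted p = 0.00591) and with library-size scaling (1.01, edgeR adjusted p = 0.00733). Its relative Zhx1 fell by 1.11 on the log2 scale (edgeR adjusted p = 6.48e-05). Of the 2 that rose, Trp53 was at 8.53 to 14.7 CPM in wild-type and 10.7 to 22.3 CPM in Ndrg3 LKO livers (log2 fold change 0.73, edgeR adjusted p = 0.0127).

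Activators of Afp fell and rose. Cebpa, a factor of differentiated hepatocytes, was at 298 to 394 CPM in wild-type livers and at 65.9 to 196 CPM in Ndrg3 LKO livers, with LKO5 highest (log2 fold change -1.76, edgeR adjusted p = 4.75e-04, and -2.10 without LKO5). Hnf4a, the nuclear receptor that maintains hepatocyte identity, had a log2 fold change of -1.58 (edgeR adjusted p = 1.34e-04, and -1.78 without LKO5, which was at 362 CPM against a median of 194). Foxa2, a pioneer factor of liver genes, was at 18.5 to 26.8 CPM in wild-type and at 25.1 to 45.4 CPM in Ndrg3 LKO livers, with LKO5 lowest (log2 fold change 0.79, edgeR adjusted p = 0.00281, and 0.94 without LKO5). Foxa3 did not pass (log2 fold change 0.44, edgeR adjusted p = 0.0599). With library-size scaling, which moved the median over all tested genes from 0.03 to 0.56 on the log2 scale, Cebpa and Hnf4a still fell, with log2 fold changes of -1.31 and -1.10. Of 7 hepatocyte markers 5 fell, 6 without LKO5 and 3 without WT2 and WT5, and the part of lost hepatocyte RNA in the levels of these regulators was not tested.

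**Figure D4:**
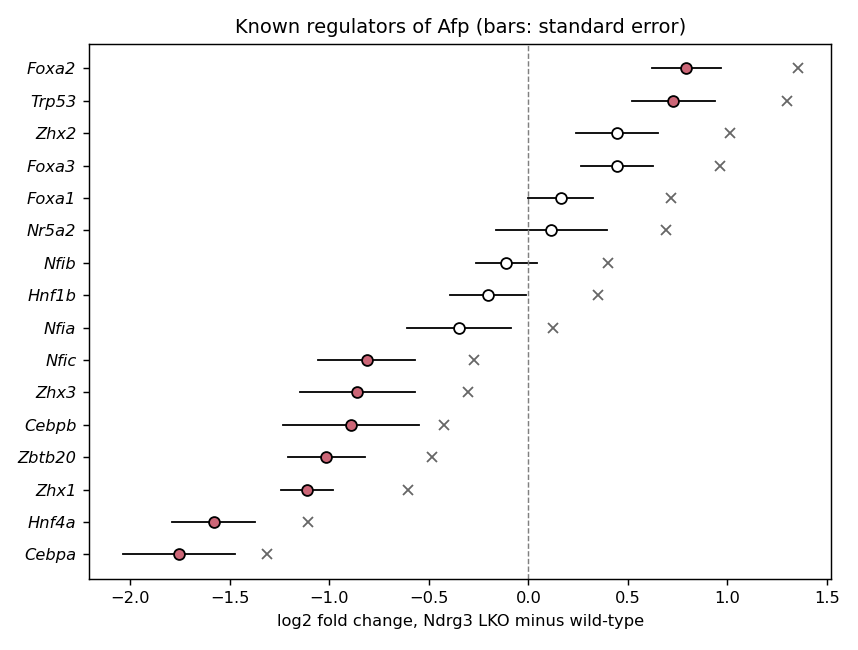
Log2 fold change of the 16 known regulators of Afp, Ndrg3 LKO minus wild-type, with 1 standard error to each side. Filled circles passed an edgeR adjusted p of 0.05, and grey crosses are the values with library-size scaling. Cebpa and Hnf4a lie lowest, Zbtb20 at -1.01, and Zhx2 at 0.45.

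Over all 10 livers none of the relatives of Afp and Gpc3 rose in edgeR with TMM scaling, while with library-size scaling 1 of the albumin family and 3 of the glypican list did. Of the other albumin family genes, Alb fell (log2 fold change -1.24, edgeR adjusted p = 0.0437, and -2.02 without LKO5), while Afm and Gc did not pass, with log2 fold changes of -0.57 and 0.06. LKO5 was the highest liver for Afm, which passed without it (-1.02, edgeR adjusted p = 6.78e-04). Without WT2 and WT5 none of the 3 passed in edgeR. Of 9 glypicans and partners of Gpc3, 6 were tested, 1 fell and none rose in edgeR. The one was Gpc4, at 43.9 to 61.4 CPM in wild-type and 31.6 to 38.0 CPM in Ndrg3 LKO livers (log2 fold change -0.64, edgeR adjusted p = 0.0013), and its call was lost with library-size scaling (-0.10, adjusted p = 0.594). Without LKO5 Gpc1 also fell (-0.94, edgeR adjusted p = 0.00254) and Cd81 rose (0.41, edgeR adjusted p = 0.0329).

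The receptors and binding proteins of Igf2 were all tested, and 6 of 12 fell and 2 rose with TMM scaling, against 23% and 25.6% of all genes. With library-size scaling 3 fell and 4 rose. The median log2 fold change with TMM scaling was -0.31. Igfals, which carries insulin-like growth factors in plasma complexes, was at 103 to 134 CPM in wild-type livers and at 13.5 to 39.1 CPM in Ndrg3 LKO livers, with LKO5 highest (log2 fold change -2.48, edgeR adjusted p = 4.15e-05). The binding proteins Igfbp2 and Igfbp1 fell, with log2 fold changes of -1.50 and -1.33 (edgeR adjusted p = 0.0182 and 0.00246). LKO5 was the highest Ndrg3 LKO liver for both, at 622 CPM for Igfbp2 and 247 CPM for Igfbp1. Igfbp7, a secreted protein of vessels and stroma, rose, with 17.2 to 24.6 CPM in wild-type and 25.8 to 47.0 CPM in Ndrg3 LKO livers (log2 fold change 0.86, edgeR adjusted p = 0.0015). Leaving out WT2 and WT5 gave 1 that rose and 4 that fell.

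Of 21 other imprinted genes of fetal growth, 10 were tested, of which 4 rose and 3 fell, where 25.6% and 23% of all genes did, with a median log2 fold change of 0.13. The largest changes were the losses of 2 maternally expressed noncoding RNAs beside Dlk1. Meg3 was at 9.44, 4.45, 4.29, 10.2 and 3.64 CPM in WT1 to WT5 and at 0.317, 0.0243, 0.284, 0.0856 and 0.236 CPM in LKO1 to LKO5. Its counts were 61 to 221 in wild-type and 1 to 11 in Ndrg3 LKO livers, and edgeR put the change at -5.08 ± 0.53 on the log2 scale (standard error, adjusted p = 3.01e-05). Rian, transcribed from the same domain, was at 2.21 to 4.37 CPM in wild-type and 0.0856 to 0.662 CPM in Ndrg3 LKO livers (log2 fold change -3.27, edgeR adjusted p = 1.05e-04). For both RNAs LKO5 lay inside the range of the other Ndrg3 LKO livers. Both were under 1 CPM in every Ndrg3 LKO liver and passed the filter only through the wild-type livers. Their calls are thus a description and not a test of the list. Mest, a paternally expressed enzyme gene, rose, with 0.230 to 0.787 CPM in wild-type and 1.06 to 1.94 CPM in Ndrg3 LKO livers (log2 fold change 1.70, edgeR adjusted p = 9.49e-04), and Sgce, also paternally expressed, had a log2 fold change of 0.90 (edgeR adjusted p = 0.00239). Without WT2 and WT5, 8 of the list were tested, of which 2 rose and 1 fell. Meg3 and Rian were not tested there, since too few wild-type livers were left for them to meet the filter.

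Of 16 genes of the let-7 and Igf2bp axis around Lin28b, 8 were tested, of which 1 rose and 3 fell, or 3 and 1 with library-size scaling, where all genes had 25.6% and 23%, or 52.1% and 8.97%, with a median log2 fold change of -0.45. Zcchc6, a terminal uridyltransferase that acts on let-7 precursors, was at 23.1 to 51.4 CPM in wild-type and at 9.44 to 20.5 CPM in Ndrg3 LKO livers (log2 fold change -1.32, edgeR adjusted p = 0.00191). Dis3l2, the nuclease that degrades uridylated let-7 precursors, rose by 0.67 on the log2 scale (edgeR adjusted p = 6.01e-04). Dicer1, the processing enzyme, and E2f5 fell, each with a log2 fold change of -0.56 (edgeR adjusted p = 0.00318 and 0.0286), and both calls were lost with library-size scaling. Lin28a and Igf2bp1 had at most 5 and 1 counts in any liver.

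Among 14 Notch ligands, receptors and partners of Cd24a, 8 were tested, of which 3 rose and 1 fell (25.6% and 23% of all genes), or 6 and 0 with library-size scaling (52.1% and 8.97%), with a median log2 fold change of 0.47. The ligand Dll1 was at 1.69 to 3.45 CPM in wild-type and 3.76 to 8.40 CPM in Ndrg3 LKO livers, with no overlap and LKO5 highest (log2 fold change 1.35, edgeR adjusted p = 0.00253, and 1.15 without LKO5). The target Hes1 and the endothelial ligand Dll4 rose by 1.08 and 1.02 on the log2 scale (edgeR adjusted p = 0.0078 and 0.0257), and Dll4 by 0.67 without LKO5 (adjusted p = 0.0351). Lyn, a kinase coupled to Cd24a in leukocytes, fell by 0.79 (edgeR adjusted p = 0.00133), a call that was lost with library-size scaling (-0.27, adjusted p = 0.225).

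Other genes of fetal or oncofetal liver are given next. Of 28 in the files, 18 were tested, 13 rose and 1 fell, where 25.6% and 23% of all genes did, with a median log2 fold change of 1.40 against 0.03 for all genes. Some of them, such as Mest, Ly6d, Prom1 and Akr1b7, passed the filter through the Ndrg3 LKO livers, so the count is a description and not a test of the list. Ly6d, a surface protein of lymphoid and epithelial progenitors, was at 0.460 to 6.11 CPM in wild-type livers, with a median of 0.596 CPM. In Ndrg3 LKO livers it was at 25.0 to 322 CPM, with a median of 85.8 CPM (log2 fold change 6.13, standard error 0.91, edgeR adjusted p = 2.97e-04). Akr1b7, an aldose reductase relative, was at 0.223 to 0.450 CPM against 2.12 to 15.5 CPM (log2 fold change 4.43, edgeR adjusted p = 2.79e-04). Prom1, a surface marker of liver progenitors, was at 0.298 to 1.08 CPM against 4.11 to 22.8 CPM (log2 fold change 4.42, edgeR adjusted p = 5.55e-05). Tff3, a secreted trefoil peptide, had a log2 fold change of 3.79 (edgeR adjusted p = 0.0287), but it was at 210 CPM in LKO5 and its call was lost without that liver (1.17, adjusted p = 0.213). Sox9, a factor of bile duct cells and progenitors, fell by 0.86 (edgeR adjusted p = 0.0157), a call lost with library-size scaling (-0.29, adjusted p = 0.377). Leaving out WT2 and WT5 gave 12 that rose and none that fell in edgeR.

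**Figure D5:**
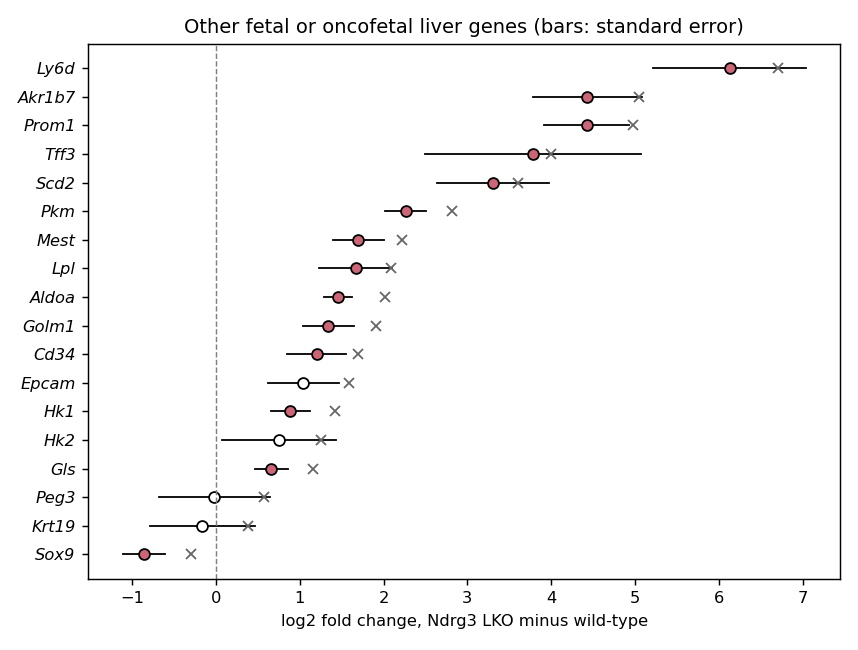
Log2 fold change of the 18 tested genes of the further fetal or oncofetal list, Ndrg3 LKO minus wild-type, with 1 standard error to each side. Filled circles passed an edgeR adjusted p of 0.05, and grey crosses are the values with library-size scaling. Ly6d at 6.13 is highest, and Sox9 at -0.86 lowest.

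The fetal liver also makes red blood cells, and genes of that process did not rise. Of 14 in the files, 3 were tested, of which Alas2, the erythroid heme synthesis enzyme, and Klf1, an erythroid factor, fell, with log2 fold changes of -3.19 and -2.23 (edgeR adjusted p = 2.01e-04 and 0.0025). For both LKO5 was the highest Ndrg3 LKO liver, at 39.2 and 2.17 CPM. Klf1 had a median of 0.461 CPM in Ndrg3 LKO livers and met the filter only through the wild-type livers. Its call is thus a description and not a test. Another 8 of the 14, the globin genes among them, were listed at 0 in all 10 livers, so the list gives no measure of red blood cells.

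Markers of the other cells of the liver moved with the groups. In edgeR 6 of 9 markers of stellate cells and fibroblasts rose, 6 of 7 of endothelial cells, and all 6 tested of Kupffer cells and macrophages. Of all genes tested, 25.6% rose. The median log2 fold changes of the 3 lists were 1.24, 1.21 and 1.31. With library-size scaling, where 52.1% of all genes rose, 8, 7 and 6 of these markers did. Their summed levels ran from 115 to 183, 55.1 to 71.8 and 68.3 to 178 CPM in wild-type livers, and from 249 to 326, 118 to 155 and 158 to 508 CPM in Ndrg3 LKO livers. The 4 tested markers of dividing cells rose, with a summed level of 3.15 to 6.36 CPM in wild-type and of 9.25 to 72.3 CPM in Ndrg3 LKO livers. That level was 54.4, 11.8, 9.25, 33.8 and 72.3 CPM in LKO1 to LKO5. Top2a and Ccnb1, among these 4 markers, were under 1 CPM in every wild-type liver and passed the filter only through the Ndrg3 LKO livers. Without LKO5, 2 markers of dividing cells were tested and both rose. The counts of this list are thus a description and not a test. Of 6 tested cholangiocyte markers Spp1 rose and Sox9 fell. Both markers of erythroid cells that were tested, Alas2 and Klf1, fell, though Klf1 met the filter only through the wild-type livers. Markers of B and T cells and of neutrophils did not pass the filter. The part of these cell types in the levels of Afp, Gpc3, Igf2bp3 and H19 was not tested.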

How the data were processed

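Livers of 5 wild-type and 5 Ndrg3 LKO mice were profiled by RNA sequencing. The paper's figure legends for these data count fewer than 5 Ndrg3 LKO livers and do not say which was left out. All 5 were used here. The deposited values are raw counts per gene, although the files are named for CPM, as whole numbers with unequal totals show. The authors made stranded, paired-end mRNA libraries, mapped the reads to mm9 and counted them with STAR; the version stated for STAR differs between sources (2.7.3a in the submitters' processing notes, which also name Trim Galore 0.6.4 and Cufflinks 2.2.1). The annotation and strand setting of the counting are not given in the sources used here. The numbers did not show pairs of livers.

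Counts were fitted with edgeR 4.0.16 (R 4.3.3) by the quasi-likelihood test with TMM scaling, over the 11208 genes that reached 1 CPM in 5 or more livers, with Benjamini-Hochberg adjustment at 0.05. Members under the filter (H19, Igf2, Igf2bp3, Dlk1 and Lin28b) were taken from the same fit over the 17746 genes with a count. Single genes were also tested by the exact two-sided permutation test of log2(CPM + 1) over 252 splits. Replicates are different mice, and every pair within a group differed by more than counting noise. The fit was tested on simulated data. Alternatives were DESeq2 1.42.0, median-of-ratios and library-size scaling, quantile normalization with limma 3.58.1, limma on log2(CPM + 1), no filter, a mean CPM of at least 5, a log2 fold change above 1 in size, a replicate block and each liver left out. Leaving out WT2 and WT5 together, a filter of 4 livers and the muscle list were chosen after seeing the data.

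The named genes are the 8 members, Ndrg3, up to 4 genes per list that passed the test, in order of the size of their change, and the 3 genes most like each member that passed the filter. Others, such as Zhx2, Foxa2, Foxa3, Trp53, Afm, Gc, Krt19, Malsu1, A630012P03Rik, Lin28a and Igf2bp1, were named after their values were seen. The members and lists were chosen with earlier results of these data known, and 1 gene of the list of Afp regulators is not reported here.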

Additional observations from a re-analysis of the deposited data

Results flagged for a closer look

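In the wild-type group 3 members had 1 liver far from the other 4, by Dixon's test at the 95% level, among 17 groups of 5 livers checked. For normally distributed values chance flags about 1 in 20 such groups, and the rate for levels that rest on few counts was not worked out. H19 was at 6.38 CPM in WT5 and at 0 to 0.112 CPM in the other wild-type livers. Cd24a was at 4.89 CPM in WT2 and at 0.775 to 1.78 CPM in the others. Igf2 was at 0.562 CPM in WT1 and at 0.112 to 0.238 CPM in the others.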

How the results depend on the processing

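The log2 fold change of Afp ran from 1.78 to 3.37 and that of Gpc3 from 0.78 to 2.24 over 19 alternatives each, and every one stayed higher in the Ndrg3 LKO livers past the threshold. No value of Afp, Gpc3, Cd24a, H19, Igf2 or Igf2bp3 changed direction. A mean CPM of at least 5, which 8729 genes met, left 0 members changed and 0 higher, because Afp, Gpc3 and Cd24a do not reach it. Requiring a log2 fold change above 1 in size left 2301 of all genes changed, against 5443. Leaving out 1 liver gave 2 to 3 members changed and 4431 to 5962 genes changed. Igf2bp3 missed the threshold with quantile normalization (0.29, limma adjusted p = 0.142) and without WT2 and WT5 (1.10, edgeR adjusted p = 0.0646), and the cause was not tested. Same-numbered livers did not deviate together (correlations of -0.36, -0.27, -0.31, -0.18 and 0.04). The numbers were therefore not used as pairs in the main fit, and a pairing by litter was not tested. With the replicate number as a block, the log2 fold change of H19 was 3.18 (edgeR adjusted p = 0.00667) and that of Igf2bp3 1.13 (edgeR adjusted p = 0.0526); the block sets WT5 beside LKO5, the livers with the most H19. Depth limits Dlk1 and Lin28b, which had at most 3 and 2 counts in any liver.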

Other observations

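Spink3, a trypsin inhibitor gene of the fetal or oncofetal list that did not pass the filter on low values, had 0, 0, 1, 1 and 1 counts in WT1 to WT5 and 107, 53, 97, 7 and 47 counts in LKO1 to LKO5. It was named after its values were seen, and all 5 Ndrg3 LKO livers lay above all 5 wild-type livers.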
